A study of Mus musculus with 12 samples.

Results

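Aquaporins are channel proteins of the cell membrane that let water, and in some members glycerol or other small solutes, pass along its gradient. In the kidney each segment of the tubule carries its own members. Aqp1 serves the bulk uptake of water in the proximal tubule, whereas Aqp2, Aqp3 and Aqp4 carry water across the principal cells of the collecting duct under the control of the hormone vasopressin. The 10 genes described here are Aqp1, Aqp2, Aqp3, Aqp4, Aqp5, Aqp6, Aqp7, Aqp8, Aqp9 and Aqp11, chosen by name from the 37681 genes of the count table.

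RNAseq was performed on kidney cortex of male C57BL/6 mice, 18 months old and untreated. The TG+ group held 3 TRACK mice (43-29, 43-49 and 43-75), which carry the transgene GGT-HIF1αM3 (γ-HIF1αM3), a mutated and constitutively active form of the hypoxia-inducible transcription factor HIF1α made in the proximal tubules. The TG- group held 3 wild-type littermates without the transgene (43-26, 43-50 and 43-76). Both kidneys of each mouse were sequenced, giving 12 libraries of 21888584 to 33704850 reads, and the kidneys of a mouse were summed before any test. The tissue was a thin outer slice of cortex taken whole, without sorting of cells, so that fewer cells of a type and less RNA per cell cannot be told apart.

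Aquaporin mRNA levels moved in both directions in TG+ cortex. In levels given as CPM, read counts scaled to the normalised library size, Aqp4 was 9.09-fold and Aqp8 was 6.49-fold higher than in TG- cortex, and Aqp6 was 1.27-fold higher. Aqp1, the most abundant member, fell to 64.3% and Aqp11 to 65% of the TG- mean, and Aqp3 fell slightly. Thus 3 of the 10 members rose and 3 fell at an adjusted p below 0.05 in the quasi-likelihood test of edgeR, adjusted by Benjamini-Hochberg over the 19399 tested genes, while 4 (Aqp2, Aqp5, Aqp7 and Aqp9) did not pass. Among all tested genes 15.4% were higher and 10.9% were lower by the same rule. Scaled to library size alone, 6 members were higher and 2 lower (Aqp1 and Aqp11). By that scaling 4511 of all tested genes were higher and 947 lower, in place of 2982 and 2105. Of all called genes 82.6% were then higher in place of 58.6%. At the threshold of the study, a fold change above 2 or below 0.5 with an adjusted p below 0.01, Aqp4 and Aqp8 were called higher and 0 members lower, against 3.77% of all genes higher and 0.211% lower.

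All 10 members passed the filter on low counts. Aqp5 and Aqp9 reached it in enough mice only through the TG+ group, where their reads were more numerous. Both enter the counts and the median below, so these figures are partly set by that selection and are given as a description. The TG+ and TG- mice did not overlap for 8 members, against 44.2% of all tested genes, and the exceptions were Aqp2 and Aqp5. An unadjusted p below 0.05 was reached by 10 of 10 members and by 39.1% of all tested genes. The median log2 fold change of the members was 0.34, and that of all tested genes was 0.01. With 3 mice a genotype there are 20 ways to assign the labels, so an exact permutation test cannot give a 2-sided p under 0.1, the value found for all 8 members without overlap. The test gave 0.2 for Aqp2 and Aqp5.

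**Figure D1:**
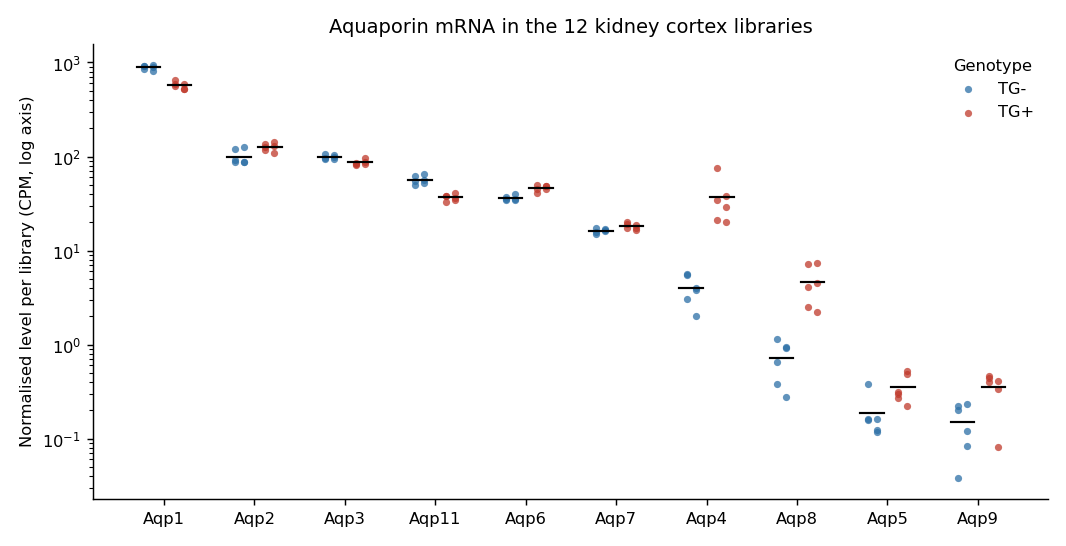
Level of each aquaporin gene in the 12 libraries (points, 1 per kidney, in CPM, counts scaled to the normalised library size, on a log axis), with the mean of the 3 mice of each genotype as a bar. The TG+ and TG- libraries of Aqp1, Aqp4, Aqp6, Aqp8 and Aqp11 lie apart, and Aqp5 and Aqp9 stay below 1 CPM in every library.

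**Figure D2:**
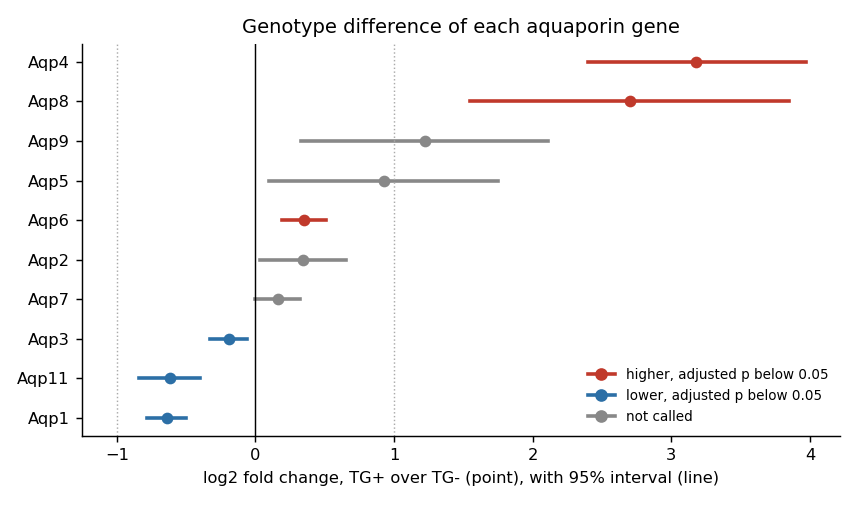
Log2 fold change of TG+ over TG- for the 10 genes (points) with 95% intervals from edgeR's fit (lines), and dotted lines at a 2-fold change in either direction. The intervals of Aqp4 (2.40 to 3.97) and Aqp8 (1.55 to 3.85) lie beyond the dotted line, and those of Aqp1 and Aqp11 lie between the dotted line and 0.

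HIF1α binds, with its partner HIF1β, to hypoxia response elements whose core letters are ACGTG or GCGTG. These letters were searched on both strands in the 300 bases around each start site (250 bases before to 50 bases after it) that RefSeq gives for GRCm38.p6. Promoters were matched for 9 of the 10 members, all but Aqp4. These 9 members have 11 promoters in the table, with 2 each for Aqp7 and Aqp9. A match was found in 6 of the 11 promoters (54.5%), from Aqp2, Aqp5, Aqp6, Aqp8, Aqp9 and Aqp11, and in 43.8% of all 32851 promoters of that length, a share near that of the members. A match describes letters in this window and is not a measured binding site.

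The 4 promoters below belong to members whose call was kept under every processing alternative, and are shown to set the letters of genes that rose beside those of genes that fell. They are Aqp8 (chr7:123462044-123462343, plus strand) and Aqp6 (chr15:99600950-99601249, plus strand), which rose, and Aqp1 (chr6:55336049-55336348, plus strand) and Aqp11 (chr7:97738198-97738497, minus strand), which fell. Capitals mark ACGTG or GCGTG read on either strand, so that CACGTG holds a match on each strand.
Aqp8: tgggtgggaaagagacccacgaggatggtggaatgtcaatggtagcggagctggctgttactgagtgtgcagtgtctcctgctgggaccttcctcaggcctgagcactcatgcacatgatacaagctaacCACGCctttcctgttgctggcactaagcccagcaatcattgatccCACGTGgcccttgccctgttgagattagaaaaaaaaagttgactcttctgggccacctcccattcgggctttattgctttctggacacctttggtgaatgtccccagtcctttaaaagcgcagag
Aqp6: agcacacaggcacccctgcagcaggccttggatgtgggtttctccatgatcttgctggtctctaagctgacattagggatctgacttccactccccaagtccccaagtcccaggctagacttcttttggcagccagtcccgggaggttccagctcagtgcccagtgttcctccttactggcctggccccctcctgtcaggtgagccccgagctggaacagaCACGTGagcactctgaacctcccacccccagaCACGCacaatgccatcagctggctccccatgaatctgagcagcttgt
Aqp1: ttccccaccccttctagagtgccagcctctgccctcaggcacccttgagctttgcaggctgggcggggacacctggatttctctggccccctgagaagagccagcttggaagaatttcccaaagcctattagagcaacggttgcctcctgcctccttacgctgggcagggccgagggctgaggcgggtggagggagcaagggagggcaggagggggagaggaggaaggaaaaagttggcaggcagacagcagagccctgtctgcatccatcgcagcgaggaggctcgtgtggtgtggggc
Aqp11: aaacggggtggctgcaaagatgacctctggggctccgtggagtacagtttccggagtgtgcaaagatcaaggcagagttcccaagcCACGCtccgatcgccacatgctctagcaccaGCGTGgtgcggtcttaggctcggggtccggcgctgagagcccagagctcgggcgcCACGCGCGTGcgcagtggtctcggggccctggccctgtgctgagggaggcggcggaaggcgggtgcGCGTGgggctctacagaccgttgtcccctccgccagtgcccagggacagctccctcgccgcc

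The letters were found in promoters of genes that rose and of a gene that fell. Aqp8 and Aqp6 each held 3 matches, which include the palindrome CACGTG, and this palindrome was present in 4 of the 11 promoters (those of Aqp2, Aqp5, Aqp6 and Aqp8) against 7.2% of all promoters. The palindrome was looked at after the sequences had been seen, and 3 of the 4 members lie in 1 gene cluster. Aqp11, which fell, held 5 matches, all GCGTG. Aqp1 and Aqp3, which also fell, held 0 in this window.

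Aqp1 is the constitutive water channel of the proximal tubule and the thin descending limb, and is also made by vascular endothelium and red blood cells. Its normalised level was 579, 586 and 557 CPM in the TG+ mice 43-29, 43-49 and 43-75. In the TG- mice 43-26, 43-50 and 43-76 it was 834, 912 and 933 CPM. Every TG+ mouse thus lay below every TG- mouse, by far more than the spread within a genotype (574 ± 15.2 against 893 ± 52.5 CPM, SD, n = 3 mice each). The log2 fold change was -0.64 ± 0.06 (SE) with a 95% interval of -0.78 to -0.50 (edgeR, adjusted p = 0.000381). The kidneys of a mouse differed at most 1.23-fold, in 43-49, and the 6 TG+ libraries (524 to 644 CPM) stayed below the 6 TG- libraries (821 to 948 CPM).

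Aqp11 is an intracellular aquaporin of the endoplasmic reticulum of proximal tubule cells, and mice without it develop cystic kidneys. Its level was 33.8, 39.1 and 37.4 CPM in 43-29, 43-49 and 43-75 and 50.5, 63.5 and 55.5 CPM in 43-26, 43-50 and 43-76. The groups did not overlap. The log2 fold change was -0.62 ± 0.09 (SE; 95% interval -0.84 to -0.40; edgeR, adjusted p = 0.00309). Aqp11 and Aqp1 fell by much the same factor, so the log2 ratio of Aqp11 to Aqp1 reads, which needs no normalisation, was -3.97 ± 0.11 in TG+ and -3.99 ± 0.12 in TG- mice (SD, n = 3).

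Genes that mark the proximal tubule were lower beside Aqp1 and Aqp11. Of 12 proximal tubule markers 7 fell and 0 rose, with a median log2 fold change of -0.41, and their summed level was 19012 to 20588 CPM in TG+ and 26985 to 30820 CPM in TG- mice. The phosphate transporter Slc34a1, the most abundant of them, fell by 0.76 on the log2 scale (adjusted p = 0.000158). The organic anion transporter Slc22a6 and the cytochrome P450 gene Cyp4b1 fell by 1.09 and 1.07, more than Aqp1. Glycine amidinotransferase, Gatm, had a log2 fold change of 0.01 and the gluconeogenic enzyme Pck1 of 0.52, and neither passed (adjusted p = 0.927 and 0.239). The part of proximal tubule content in the lower Aqp1 and Aqp11 levels was not tested.

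Endothelial and red blood cell genes showed the opposite direction to Aqp1, and the list of the loop of Henle and distal tubule had 0 of 7 genes called. Of 8 endothelial markers 7 rose (median log2 fold change 0.64, summed level 645 to 691 CPM in TG+ and 376 to 497 CPM in TG-), among them the VEGF receptor Kdr at 0.72 and Emcn at 0.77. Of 5 tested red blood cell genes 4 rose, and the β-globin gene Hbb-bs was 61.8 ± 7.47 CPM in TG+ and 34.8 ± 3.79 CPM in TG- mice. Their part in the level of Aqp1 was not tested.

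Aqp2 is the water channel that vasopressin moves to the apical membrane of principal cells. Its level was 133, 132 and 113 CPM in the TG+ mice 43-29, 43-49 and 43-75, and 123, 90.2 and 87.2 CPM in the TG- mice 43-26, 43-50 and 43-76. The TG- mouse 43-26 lay within the TG+ range, so the groups overlapped. The log2 fold change of 0.34 ± 0.13 (SE; 95% interval 0.03 to 0.65) did not pass (edgeR, adjusted p = 0.103). Without 43-26 it was 0.51 with an adjusted p of 0.00887, and the kidneys of 43-26 gave 120 and 125 CPM, so that its higher level was present in each. Aqp2 also passed when each kidney was taken as a library (limma voom, 0.36, adjusted p = 0.0139) and under scaling to library size alone (0.46, adjusted p = 0.0459).

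Aqp3 lies in the basolateral membrane of the same cells and also conducts glycerol. It was measured at 82.6, 91.3 and 86 CPM in 43-29, 43-49 and 43-75 and at 98.3, 95.5 and 103 CPM in 43-26, 43-50 and 43-76. The groups did not overlap, and the difference was small (log2 fold change -0.19 ± 0.06, SE; 95% interval -0.33 to -0.06; edgeR, adjusted p = 0.0473). The Aqp3 call was lost when any of the 5 mice 43-26, 43-29, 43-50, 43-75 or 43-76 was left out (adjusted p up to 0.15), and under scaling to library size alone it was -0.07 with an adjusted p of 0.462. The log2 ratio of Aqp2 to Aqp3 reads was 0.69, 0.54 and 0.40 in 43-29, 43-49 and 43-75 and 0.32, -0.08 and -0.25 in 43-26, 43-50 and 43-76. Every TG+ mouse was thus above every TG- mouse in this ratio, by 0.54 on average (exact permutation test, 2-sided p = 0.1, the smallest possible).

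Aqp4 is the further basolateral water channel of principal cells, is also made in the straight proximal tubule of mice, and is best known from astrocytes in the brain. It had the largest fold change of the family with all mice, whereas without 43-49 that of Aqp8 was larger (log2 fold change 3.02 against 2.70). Aqp4 stood at 25.5, 57.7 and 27.3 CPM in the TG+ mice 43-29, 43-49 and 43-75 and at 3.82, 4.89 and 3.42 CPM in the TG- mice 43-26, 43-50 and 43-76. The lowest TG+ mouse was far above the highest TG- mouse, while 43-49 stood apart from the other TG+ mice. These levels rest on 1262 to 3274 reads per TG+ mouse and 167 to 279 reads per TG- mouse. The log2 fold change was 3.18 ± 0.34 (SE; 95% interval 2.40 to 3.97; edgeR, adjusted p = 0.000646), and 2.70 with an adjusted p of 7.82e-05 without 43-49.

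Aqp4 also varied between the kidneys of a mouse more than other abundant members. The kidneys of 43-49 held 75.4 and 38.2 CPM, those of 43-75 34.2 and 20.1 CPM and those of 43-29 21 and 29.3 CPM. In TG- mice the libraries lay between 2 and 5.6 CPM, with the widest gap in 43-26 (5.54 and 2 CPM, 2.77-fold). The 6 TG+ libraries nevertheless lay above the 6 TG- libraries. The median kidney difference of Aqp4 was 0.63 on the log2 scale, against 0.07 for Aqp1, Aqp2 and Aqp11.

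In GENCODE M21 (GRCm38) Aqp4 lies on chromosome 18 (15389496 to 15410982, minus strand) and overlaps the gene AC133525.2, with which it may share reads. The nearest tested neighbours on both sides, Kctd1 (log2 fold change 0.09), Gm6304 (-0.08), Chst9 (0.21) and Gm10036 (0.17), were not called. They lie 40.9 to 421.8 kb away, and the closest, Chst9, had a mean of only 0.754 CPM.

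Markers of principal cells were set beside these 3 channels, Aqp2, Aqp3 and Aqp4. Of 10 markers 1 rose, the transcription factor Tfcp2l1 (log2 fold change 0.42, adjusted p = 0.00712), and 0 fell, and the median was 0.08. Their summed level was 1333 to 1513 CPM in TG+ and 1162 to 1246 CPM in TG- mice, of which Tfcp2l1 made up 708 ± 62.6 and 530 ± 27.8 CPM (SD, n = 3). The potassium channel Kcnj1 was at 285 ± 19.2 and 277 ± 26.5 CPM, and the sodium channel subunit Scnn1a at 132 ± 17.1 and 133 ± 2.19 CPM (SD, n = 3) in TG+ and TG- mice. The subunits Scnn1g (log2 fold change 0.21, edgeR, adjusted p = 0.0782) and Scnn1b (0.14, adjusted p = 0.103) did not pass, and Fxyd4 was lowest at -0.07. The log2 ratio of Aqp4 to Aqp2 reads rose from -4.63 ± 0.40 in TG- to -1.88 ± 0.61 in TG+ mice. That of Aqp4 to Aqp3 rose from -4.63 ± 0.32 to -1.34 ± 0.59 (exact permutation tests, 2-sided p = 0.1 each, the smallest possible). Both ratios were chosen after the values were seen. The higher Aqp4 level already sets their separation, so they add no support to the Aqp4 call. Of 5 markers of the straight proximal tubule, the amino acid transporter gene Slc7a13 fell by 0.75 and the glucose transporter Slc5a1 rose by 0.54 on the log2 scale. Cyp7b1 (0.59), Slc22a7 (0.24) and Slc5a8 (-0.03) were not called, and the median of the list was 0.24. The part of principal cells or of this segment in the levels of these channels was not tested.

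Aqp6 is an intracellular channel of acid-secreting intercalated cells that also conducts anions. Its level was 48.9, 46.6 and 42.9 CPM in 43-29, 43-49 and 43-75 and 38.6, 35.3 and 34.8 CPM in 43-26, 43-50 and 43-76. All TG+ mice were above all TG- mice, and the 6 TG+ libraries (40.6 to 49.8 CPM) were above the 6 TG- libraries (34.4 to 40 CPM). The log2 fold change was 0.35 ± 0.07 (SE; 95% interval 0.19 to 0.51; edgeR, adjusted p = 0.00933). Of 7 tested intercalated cell markers 0 passed in either direction, with a median of 0.08 and summed levels of 388 to 447 CPM in TG+ and 371 to 419 CPM in TG- mice.

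Aqp6 shares a gene cluster with Aqp2 and Aqp5 on chromosome 15, where the 3 genes lie within 26.4 kb on the plus strand (GRCm38, 99579055 to 99605477). Log2 fold changes were 0.34 for Aqp2, 0.93 for Aqp5 and 0.35 for Aqp6. The log2 ratio of Aqp6 to Aqp2 reads was -1.45 in TG+ (SD 0.05) and -1.45 in TG- mice (SD 0.19, n = 3 each). The next gene downstream, the cytokinesis gene Racgap1, rose by 0.75 (adjusted p = 0.0409), and the other tested neighbours of the cluster, Bcdin3d (-0.03), Nckap5los (0.08) and Asic1 (-0.23), were not called. Of the neighbours of Aqp1, Inmt fell by 1.11 (adjusted p = 0.000846) and Adcyap1r1 rose by 0.97 (adjusted p = 0.00545), and Mindy4 and Pde1c were not called. Aqp3 and Aqp7 also lie together, on chromosome 4 within 65.1 kb (41033074 to 41098183), with log2 fold changes of -0.19 and 0.16.

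Aqp8 is found inside proximal tubule and collecting duct cells and is abundant in liver, pancreas and colon. It was measured at 7.32, 2.34 and 4.32 CPM in the TG+ mice 43-29, 43-49 and 43-75 and at 1.03, 0.333 and 0.798 CPM in the TG- mice 43-26, 43-50 and 43-76. The groups did not overlap, although the TG+ mice lay far apart. Reads numbered 362, 133 and 217 in the TG+ mice and 53, 19 and 39 in the TG- mice. The log2 fold change was 2.70 ± 0.50 (SE; 95% interval 1.55 to 3.85; edgeR, adjusted p = 0.00693).

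Aqp8 differed less between the kidneys of a mouse than between mice. The kidneys of 43-29 gave 7.24 and 7.38 CPM, those of 43-49 2.48 and 2.21 CPM and those of 43-75 4.1 and 4.55 CPM. In the TG- mice 43-26, 43-50 and 43-76, with fewer reads, the kidneys differed 1.24-, 1.37- and 1.47-fold. The median difference was 0.24 on the log2 scale between the kidneys of a mouse and 1.07 between mice of a genotype. For Aqp4 these values were 0.63 and 0.43. The mouse with the highest Aqp4 level, 43-49, had the lowest Aqp8 level of the TG+ group. Aqp8 left the threshold of the study when any of the 5 mice 43-26, 43-29, 43-50, 43-75 or 43-76 was left out (adjusted p up to 0.0292), and stayed below 0.05 in each case. Its gene on chromosome 7 (123462291 to 123468004, plus strand, GRCm38) had no called gene among the 4 nearest tested neighbours, Arhgap17, Lcmt1, Zkscan2 and Gm21957. Of these Gm21957 lies 1751.4 kb away, and Zkscan2 had a mean of only 0.199 CPM.

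Hepatocyte markers were measured because Aqp8 and Aqp9 are liver aquaporins. Of 6 tested markers 2 rose, the apolipoprotein Apoa1 (log2 fold change 3.64) and transthyretin Ttr (1.42), and 0 fell, with summed levels of 98.3 to 121 CPM in TG+ and 42.4 to 64.2 CPM in TG- mice. Albumin, Alb, was at 11.1 ± 2.03 and 7.98 ± 2.46 CPM (adjusted p = 0.16), and the liver genes Apoa2 and Fgb were at -0.24 and -0.02. Their part in the Aqp8 level was not tested.

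Aqp7 is an aquaglyceroporin of the straight proximal tubule and of fat cells, which release glycerol through it. Its level was 17.1, 18.8 and 18.8 CPM in 43-29, 43-49 and 43-75 and 16.9, 16.4 and 15.6 CPM in 43-26, 43-50 and 43-76. The groups did not overlap by a narrow margin, and the difference did not pass (log2 fold change 0.16 ± 0.07, SE; 95% interval 0.00 to 0.32; edgeR, adjusted p = 0.125). The adipocyte gene Adipoq was at 6.52 and 4.76 CPM in the TG+ mice 43-49 and 43-75, at 1.73 CPM in the TG- mouse 43-50 and at 0 in 43-29, 43-26 and 43-76. The mice with the most Adipoq, 43-49 and 43-75, also had the most Aqp7, while 43-50 had less Aqp7 than 43-26, and 43-29 had more than every TG- mouse. The summed adipocyte markers were 51.6 to 108 CPM in TG+ and 43.5 to 71.3 CPM in TG- mice, with 2 of 8 genes higher (Fabp4 at 0.81 and Pparg at 2.40) and 0 lower. The part of fat in the Aqp7 level was not tested.

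Aqp9 is the glycerol channel of liver cells, and Aqp5 is the water channel of salivary and lacrimal glands and lung. Both were near the lower limit of detection. Aqp9 gave 19, 23 and 14 reads in 43-29, 43-49 and 43-75 and 4, 13 and 7 reads in 43-26, 43-50 and 43-76, and 4 of its 12 libraries held at most 3 reads. In GENCODE M21 Aqp9 overlaps Gm32511 and Gm47268, with which it may share these few reads. The groups of Aqp9 did not overlap, and its log2 fold change of 1.22 ± 0.38 (SE; 95% interval 0.33 to 2.11) did not pass (edgeR, adjusted p = 0.0508). It was 1.67 (adjusted p = 0.0378) without 43-50 and 0.92 (adjusted p = 0.123) without 43-26. Leaving out any other mouse gave an adjusted p of 0.0729 to 0.137. Aqp5 gave 21, 15 and 19 reads in the TG+ mice and 14, 8 and 7 reads in the TG- mice, with overlapping CPM values (0.264 to 0.425 against 0.14 to 0.273). Its log2 fold change was 0.93 ± 0.36 (SE; 95% interval 0.10 to 1.75; edgeR, adjusted p = 0.0932). Of the 11 alternatives in which it could be tested, Aqp5 passed in 1, without 43-26 (1.30, adjusted p rounding to 0.05), and Aqp9 also passed when scaled to library size alone (1.34, adjusted p = 0.0349). The other mouse aquaporin genes looked for, Mip and Aqp12, held at most 3 reads in every library.

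**Figure D3:**
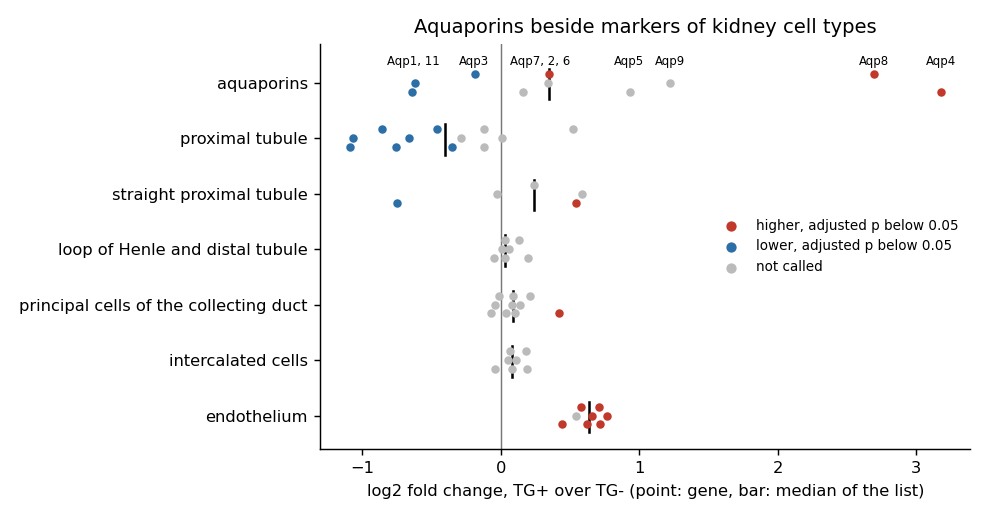
Log2 fold change of TG+ over TG- of the 10 aquaporins and of the tested genes of 6 lists of kidney cell type markers (points), with the median of each list as a black bar. Proximal tubule markers centre at -0.41 and endothelial markers at 0.64, those of principal and intercalated cells both centre at 0.08, and Aqp4 and Aqp8 lie beyond every marker shown.

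To compare members with each other, levels were divided by the exon length of each gene in GENCODE M21 (CPM per kilobase). In TG- cortex Aqp1 stood first at 340 ± 20, followed by Aqp2 at 70.5 ± 13.9 and Aqp3 at 54.2 ± 2.18 CPM per kilobase (SD, n = 3). Aqp6 followed at 14.9 ± 0.853, then Aqp11 at 6 ± 0.694 and Aqp7 at 5.76 ± 0.232, whose ranges overlapped. Aqp4 (0.648 ± 0.122) and Aqp8 (0.456 ± 0.226) also overlapped, and Aqp5 (0.0713 ± 0.0292) and Aqp9 (0.0361 ± 0.0181) came last, with ranges that overlapped narrowly. In TG+ cortex the first 4 places were the same. Aqp7 (6.45 ± 0.36) and Aqp4 (5.91 ± 2.9) followed with overlapping ranges, and then Aqp11 (3.9 ± 0.287) and Aqp8 (2.95 ± 1.58), each overlapping the gene before it. Aqp5 (0.137 ± 0.0317) and Aqp9 (0.086 ± 0.0164) were again last and did not overlap. In the RPKM values deposited by the authors, whose implied gene lengths differ, Aqp11 was at 24.8 ± 2.87 in TG- and 15.7 ± 1.24 in TG+ cortex, far above its values per kilobase, and stood 4th and 5th. Aqp7 was at 2.86 ± 0.112 and 3.11 ± 0.179 RPKM and stood 6th and 7th, so the order of the middle members depends on the lengths used. Aqp1, Aqp2 and Aqp3 kept their places.

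The summed level of the family was 398, 407 and 375 CPM per kilobase in 43-29, 43-49 and 43-75 and 486, 491 and 500 CPM per kilobase in 43-26, 43-50 and 43-76. Aqp1 made up 55.3, 54.8 and 56.6% of it in the TG+ mice and 65.3, 70.7 and 71% in the TG- mice. The share of Aqp2 was 21.3 to 23.6% in TG+ and 12.3 to 17.8% in TG- mice, and that of Aqp3 was 11.3 to 12.6% and 10.6 to 11.3%. Aqp4 and Aqp8 stayed minor, with 1.03 to 2.27% and 0.364 to 1.16% of the sum in TG+ mice. These shares depend on the gene lengths, and in the deposited RPKM the shares were 0.572 to 1.26% for Aqp4 and 0.221 to 0.698% for Aqp8, while Aqp1 made up 54.6 to 56.3% in TG+ and 64.2 to 69.8% in TG- mice.

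**Figure D4:**
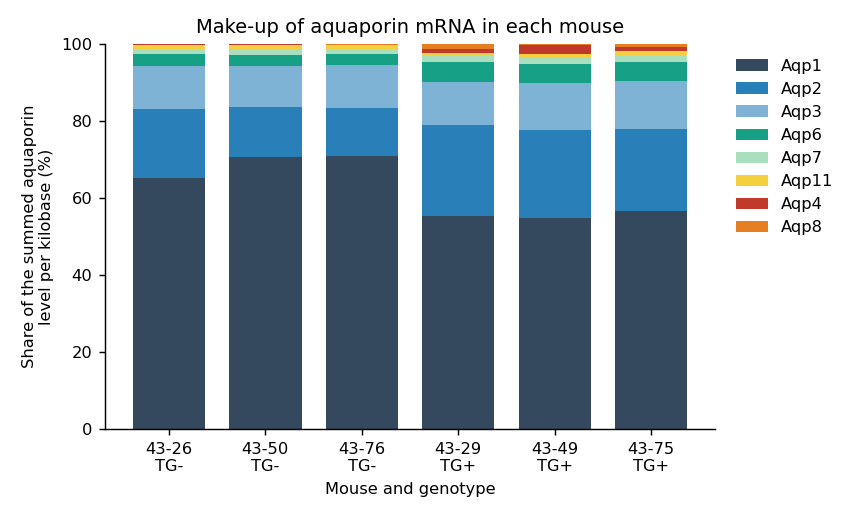
Share of each member in the summed aquaporin level per kilobase (percent, stacked) in the 6 mice, with Aqp5 and Aqp9 left out as each is under 0.05%. Aqp1 takes 54.8 to 56.6% in the TG+ mice and 65.3 to 71% in the TG- mice.

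Genes around aquaporin control were also measured. In a list of 18 genes of vasopressin signalling and Aqp2 trafficking, 1 rose and 2 fell, with a median log2 fold change of -0.05. Among all tested genes 15.4% rose and 10.9% fell by the same rule. The adenylyl cyclase Adcy3 rose by 0.66 (5.72 ± 0.707 against 3.62 ± 0.444 CPM, adjusted p = 0.0112), the protein kinase A catalytic subunit Prkaca fell by 0.16 (adjusted p = 0.0482) and the syntaxin-binding protein Stxbp2 fell by 0.21 (adjusted p = 0.0131). The vasopressin receptor Avpr2 was at 12.8 ± 3.68 and 13.2 ± 0.436 CPM, and Adcy6, the more abundant cyclase, at 125 ± 13 and 122 ± 0.992 CPM in TG+ and TG- mice. Of 5 tested genes of the tonicity response, including the transcription factor Nfat5 (log2 fold change 0.12), 0 passed.

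Glycerol handling was measured because Aqp3, Aqp7 and Aqp9 conduct glycerol. Of 8 genes of glycerol and triglyceride handling 1 rose and 2 fell, with a median log2 fold change of -0.02. Glycerol kinase, Gk, fell from 822 ± 66.5 to 678 ± 53.3 CPM (log2 fold change -0.28, adjusted p = 0.0395) and the triglyceride lipase Pnpla2 from 103 ± 7.06 to 85.5 ± 2.74 CPM (-0.26, adjusted p = 0.0206). The related gene Pnpla3 rose by 1.70 at a low level, 1.11 ± 0.449 against 0.339 ± 0.151 CPM (adjusted p = 0.0216).

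For the 8 members with a mean of at least 1 CPM, the genes with the most similar pattern were sought among 16180 genes by Pearson's r of log2 CPM over the 12 libraries of 6 mice, after the genotype means were subtracted. Aqp8 was closest to Smad3 (r = 0.98), Hmces (0.97) and S100a10 (0.97), Aqp2 to Ripor1 (0.97) and Chd4 (0.94), and Aqp11 to Coq3, Slc25a42 and Glrx5 (0.96 each). Aqp4 was closest to Kcng1 (0.95), Slco4c1 (0.94) and Slc23a1 (0.94). For Aqp1, Aqp3, Aqp6 and Aqp7 the closest gene reached 0.90 to 0.92. The libraries of a mouse share its tissue and the values share library size, so these are descriptions of 12 points chosen from many genes.

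As a check of the genotype labels, the HIF target Car9 was 122 to 166 CPM in TG+ and 11.7 to 17.6 CPM in TG- mice (log2 fold change 3.33, adjusted p = 2.13e-05). Endogenous Hif1a reads, to which the transgene may add, were 86.3 to 109 and 103 to 107 CPM (adjusted p = 0.343), so this gene does not separate the groups. Leukocyte markers were also higher in TG+ cortex (5 of 8 rose, 0 fell, summed level 122 to 127 against 73.4 to 78.6 CPM), and the markers of the loop of Henle and distal tubule were not (0 of 7 passed, median 0.03). The inner medullary marker Slc14a2 was below the filter on low counts.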

How the data were processed

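RNA of kidney cortex was sequenced as 51-bp single-end reads, mainly analysed with the Tuxedo tools. The build is mm9 per the labels, and the counting program and strand handling are not given in the sources used here. The authors deposited read counts per Ensembl gene for 12 libraries, without normalization, and RPKM values scaled after 1 was added to each count. The columns of the authors' own comparison (fold changes, p-values and q-values) were not used.

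Counts were summed over the kidneys of each mouse (48052131 to 60506785 reads per mouse), filtered with filterByExpr, scaled with TMM (factors 0.9442 to 1.065) and compared by genotype with the quasi-likelihood test of edgeR 4.0.16 in R 4.3.3, with Benjamini-Hochberg adjustment. CPM are counts scaled to the TMM library size. The 95% intervals used the degrees of freedom of that fit, and the procedure was tested on simulated data. Differences between kidneys exceeded counting error (chi-square per gene 1.95 to 7.3), and no library was a duplicate. Alternatives were DESeq2 1.42.0, other scaling, no filter, each kidney alone, each kidney as a library (voom of limma 3.58.1), a block for littermate pairs and leaving out each mouse.

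Symbols and positions came from GENCODE M21 (GRCm38), in which 32642 of 37681 identifiers were found, and no coordinate was converted between builds. Promoters came from RefSeq (GRCm38.p6). The named genes are the 10 members, called, most abundant and extreme genes of the lists, Hif1a and Car9, and, from the 3 genes most like each member, those that could be named (an item is not reported here). Neighbouring genes, read ratios between members, some further list genes and the palindrome were chosen after values were seen. The members and the lists were chosen with earlier results of these data known. Tables and plots were made with pandas 2.3.3, matplotlib 3.10.9, scipy 1.17.1 and numpy 2.4.6 under Python 3.11.15.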

Additional observations from a re-analysis of the deposited data

How the results depend on the processing

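Over 14 alternatives, all 135 member values that could be computed kept the direction of the main fit, and Aqp1, Aqp4, Aqp6, Aqp8 and Aqp11 kept an adjusted p below 0.05 in 14 of 14. Aqp3 kept its call in 5 of 14, Aqp2 gained a call in 4 of 14, Aqp7 in 1 of 14, Aqp9 in 3 of 12 and Aqp5 in 1 of 11. Aqp5 and Aqp9 could not be tested where the filter removed them. For Aqp5 this was either kidney alone and each kidney as a library, and for Aqp9 kidney 2 alone and each kidney as a library. With kidney 1 alone Aqp9 was at 1.46 (edgeR, adjusted p = 0.0626). Scaling to library size alone moved the median of all genes from 0.01 to 0.13, and gave 6 aquaporins higher, 4511 genes higher, 947 lower and, at the threshold of the study, 22 lower, with 82.6% of called genes higher in place of 58.6%.

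The number of higher aquaporins was 3 to 5 when a mouse was left out, with 5 without 43-26 (Aqp2 and Aqp5 added), and the number past the threshold of the study was 1 to 2. Among all genes, leaving out a mouse gave 1985 to 2757 higher and 1199 to 2023 lower, and 469 to 633 higher and 29 to 50 lower at the threshold of the study. The lowest counts of higher genes, 1985 and 469, and of lower genes, 1199, came without 43-76, and 1262 were lower without 43-50.

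The littermate pairs were read from a file name. Deviations of named pairs correlated at 0.37, 0.31 and -0.02, and 43-75 did not correlate best with its own littermate, so the pairing was not used. With a block for the pairs 5 aquaporins were higher (Aqp2 at 0.35, adjusted p = 0.0254, and Aqp9 at 1.24, adjusted p = 0.0487, added) and 2 lower (without Aqp3). Among all tested genes 3413 were then higher and 2499 lower, in place of 2982 and 2105. The design holds 3 mice per genotype, and Aqp5 and Aqp9 rest on 4 to 23 reads per mouse.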
